A study of Homo sapiens with 6 samples.

Results

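MXI1 and MNT encode antagonists of the oncoprotein MYC, and each had 1 region in a list of H3K27ac regions with negative log fold changes from multiple myeloma cells grown with or without a BET inhibitor. The list held 838 regions, and these 2 regions are described here. H3K27ac is an acetylation of histone H3 found at promoters and enhancers in use. The mark was profiled by chromatin immunoprecipitation and sequencing with a Diagenode antibody in KMS-11, KMS-12 and RPMI8226, established human myeloma (malignant plasma cell) lines that the labels call wild type. Cultures of each line received either 1 µM JQ1 for 72 h or its solvent, DMSO, and 1 sample per treatment was taken. JQ1 is a small molecule that displaces the BET bromodomain proteins from acetylated histones. The table names neither the base of its fold changes nor the treatment in the numerator. They are read here as log2 of JQ1 over DMSO, and no value in the table tests that reading: with the ratio turned, each negative value would be a higher level with JQ1.

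MYC acts as a dimer with MAX that binds the E-box CACGTG and raises transcription of genes for ribosome production, metabolism and growth. MXI1 (also called MXD2 or MAD2), the other MXD proteins and MNT pair with the same partner, bind the same E-box, and recruit the SIN3 corepressor with histone deacetylases. MNT is expressed widely and is often described as a general brake on MYC, whereas MXD proteins tend to appear in cells that leave the cycle. MYC itself is a well known target of BET inhibition in myeloma.

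The pair of regions was chosen by gene: a region belonged to MXI1 or MNT if it overlapped the gene or, where it overlapped no gene, if that gene had the nearest boundary. The list behind them had been selected on the fold changes described here. Every one of the 838 regions was below 0 in each line, and its deposited count of shared lines matched how many of its values were below -0.5. A lower value at MXI1 or MNT was therefore a condition of entry and is described without a test. There was no replicate within a line, the depth is unknown, and values are printed without an error of their own. A fold change of the mark in a culture cannot tell less H3K27ac per cell from fewer cells that carry it.

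Of the plasma cell markers, 3 of 10 (IRF4, XBP1 and MZB1) had a listed region. None of the other marker genes looked up had one, that is 5 of B cells, 4 of T or NK cells, 4 of myeloid cells and 3 of stroma. Over all protein coding genes 4.11% had a region, so an absence in lists this short says little. The list gives no level, so it cannot test the identity of the lines.

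The MXI1 region lay at chr10:110208640-110209433 (hg38, as the file gives it), inside the gene, which runs from 110207605 to 110287365 on the plus strand. It was 794 bp wide, counting both ends, against a median of 1165 bp over the list. The RefSeq promoter table gives MXI1 3 start sites. The region began 1035 bp after the first of them and ended 798 bp before the second, so that it held neither. The third start site was 16563 bp further on than the region's end. No other annotated gene overlapped the region. The nearest was the lncRNA gene LOC105378480, 3435 bp away.

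The MNT region lay at chr17:2401320-2402090 and was 771 bp wide. MNT runs from 2384073 to 2401060 on the minus strand, so this region was upstream of the gene, from 260 to 1030 bp before its only start site in the promoter table. It overlapped no gene. After MNT the nearest genes were the lncRNA gene LOC284009 at 4891 bp and METTL16, an RNA methyltransferase gene, at 13625 bp. Both members were thus beside a start site without covering one. Among the 822 listed regions on chromosomes with start sites in the table, 422 (51.3%) held none. Of the 191 regions without a start site that had one within 1 kb, 48 (25.1%) were upstream of it, as the MNT region and the MXI1 region (from the second start site) were, and 143 (74.9%) were downstream.

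**Figure D1:**
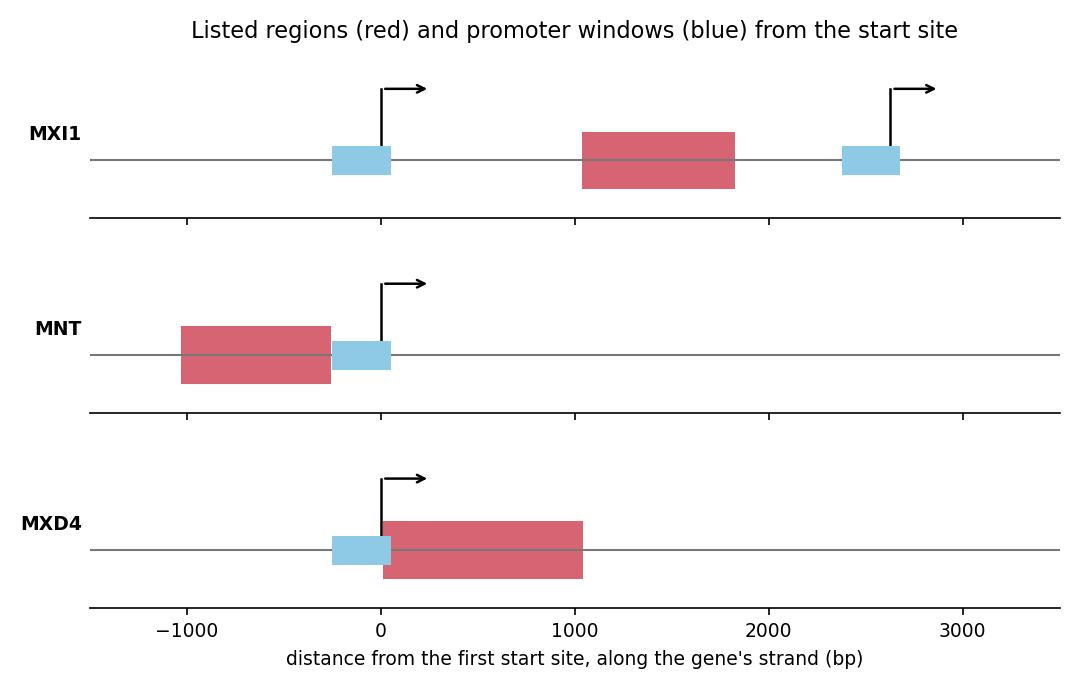
Position of the listed regions (red) and of the 300 bp promoter windows (blue) at MXI1, MNT and MXD4, in bp from the first start site and read along each gene's strand; arrows mark start sites. The MXI1 region sits between the first and second start sites, the MNT region ends 260 bp before its start, and the MXD4 region begins 10 bp after its start. The third MXI1 start site is beyond the axis.

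The promoters are printed because the antagonists are themselves E-box binding factors and because the windows flank or touch the listed regions. Each runs 5′ to 3′ on the gene's own strand, from RefSeq on GRCh38.p14, with 250 bases before and 50 after the start site. Capitals mark the E-box CACGTG, which reads the same on both strands. MXI1 windows 1 and 2 are chr10:110207355-110207654 and chr10:110209981-110210280 (plus strand), the MNT window is chr17:2401011-2401310 (minus strand) and that of MXD4, another MXD gene, is chr4:2262060-2262359 (minus strand).
MXI1 window 1: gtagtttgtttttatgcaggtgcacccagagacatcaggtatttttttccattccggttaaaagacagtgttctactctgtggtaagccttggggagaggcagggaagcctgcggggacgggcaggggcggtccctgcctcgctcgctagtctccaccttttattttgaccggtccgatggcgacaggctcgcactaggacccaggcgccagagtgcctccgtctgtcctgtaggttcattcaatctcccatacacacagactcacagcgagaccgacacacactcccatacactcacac
MXI1 window 2: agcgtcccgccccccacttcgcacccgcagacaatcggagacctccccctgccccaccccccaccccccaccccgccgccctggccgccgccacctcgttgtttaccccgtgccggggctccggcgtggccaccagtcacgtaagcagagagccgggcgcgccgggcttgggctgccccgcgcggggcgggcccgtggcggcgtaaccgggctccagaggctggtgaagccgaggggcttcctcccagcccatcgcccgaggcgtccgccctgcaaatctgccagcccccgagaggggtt
MNT: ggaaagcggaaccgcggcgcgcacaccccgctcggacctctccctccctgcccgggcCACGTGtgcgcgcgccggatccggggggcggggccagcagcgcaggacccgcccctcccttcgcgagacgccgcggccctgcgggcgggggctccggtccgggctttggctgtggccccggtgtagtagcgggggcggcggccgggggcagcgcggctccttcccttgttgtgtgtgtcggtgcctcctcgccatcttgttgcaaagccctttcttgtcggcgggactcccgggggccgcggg
MXD4: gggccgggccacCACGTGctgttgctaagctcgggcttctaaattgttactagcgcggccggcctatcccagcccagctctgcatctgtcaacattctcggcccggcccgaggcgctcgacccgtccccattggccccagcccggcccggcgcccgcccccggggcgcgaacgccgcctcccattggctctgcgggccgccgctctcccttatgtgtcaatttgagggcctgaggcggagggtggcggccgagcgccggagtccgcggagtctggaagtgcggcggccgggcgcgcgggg

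The MNT promoter held 1 E-box, whose first base was at -193 from the start site, and the window ended 10 bp short of the listed region. The MXD4 promoter held 1 as well, at -238. None of the 3 MXI1 windows held CACGTG. The variant E-box CACGCG, searched on both strands, was found once, in the third MXI1 window at 9 bases from the start site, and not in the windows of MNT or MXD4. Over all 35116 promoters in the table, 7.26% held CACGTG and 11.4% held CACGCG. Among the 1010 promoters within 1 kb of a listed region the shares were 11.3% and 23.4%. Those promoters were richer in G and C, with a median of 69.7% against 58.7% over all promoters. The MNT window had 76.0% G and C and 40 CpG pairs. The first MXI1 window, the farther of the pair from the region, had 55.0% and 14, and the second had 75.3% and 33. The ETS core CCGGAA, searched on both strands because the series concerns the ETS factor FLI1, was found in the first MXI1 window and in 17.2% of all promoters, but not in the other windows of MXI1, MNT or MXD4. These matches describe letters in the windows and show no binding.

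At MXI1 the authors' deposited table gave a log2 fold change of -0.23 (KMS-11), -1.28 (KMS-12) and -0.60 (RPMI8226). KMS-12 was by far the lowest, RPMI8226 was past -0.5, and KMS-11 was not. The mean was -0.70 ± 0.53 (SD, n = 3 lines), 281st lowest of the 838 regions. That place rested on KMS-12: without it the mean was -0.42, 726th lowest, without KMS-11 the region was 99th, and by the median of the 3 lines it was 539th.

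MNT was nearly level across the lines. The authors' deposited table listed -0.61 (KMS-11), -0.47 (KMS-12) and -0.56 (RPMI8226). KMS-12 was the line not past -0.5. Its mean was -0.55 ± 0.07 (SD, n = 3 lines), 603rd lowest. Of all listed regions, KMS-11 had 83.4% past -0.5, KMS-12 had 77.7% and RPMI8226 had 64.3%, and 25.4% were past it in all 3 lines. Neither member was among the last. The share of regions past -0.5 is set by the filter, and nothing is read from it.

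The spread between lines separated the members. The SD over the 3 lines was 0.53 at MXI1 and 0.07 at MNT, and the median over the list was 0.27. Ordered from the most even region to the most uneven, MNT stood 41st and MXI1 758th of 838. The gap between KMS-11 and KMS-12 at MXI1 was 1.05 in the authors' deposited table, and only 26 regions, MXI1 included, had a difference as large in that direction. With 1 sample per line and treatment, a difference between lines and one between 2 cultures of 1 line cannot be told apart.

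**Figure D2:**
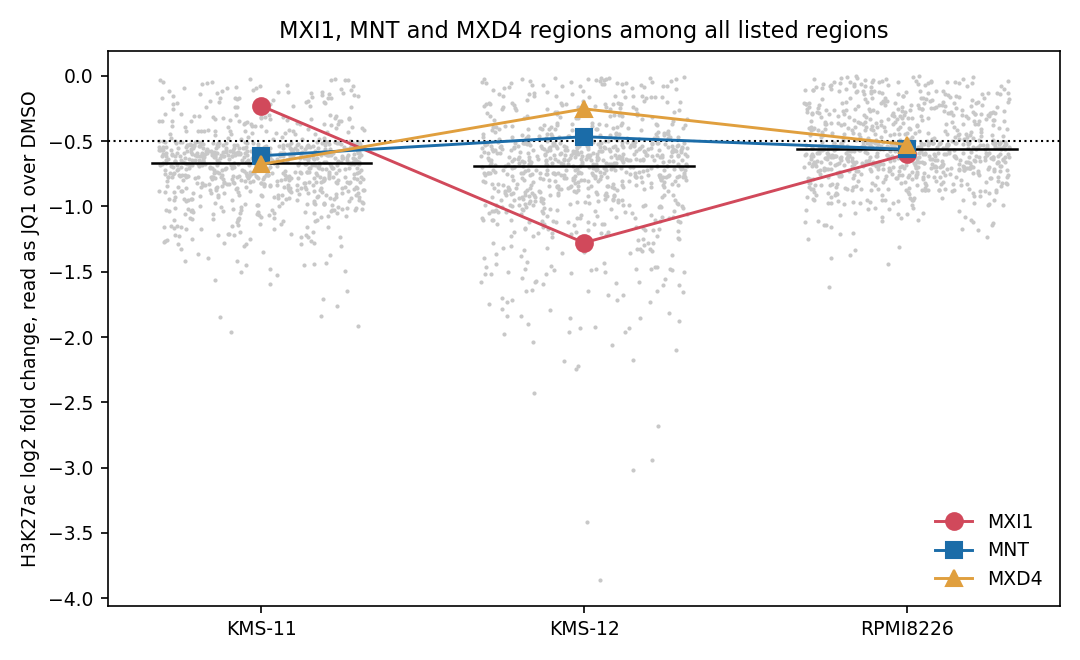
H3K27ac log2 fold change (read as JQ1 over DMSO) in each line, with the MXI1, MNT and MXD4 regions joined by lines over all 838 listed regions (grey points, spread sideways for view; black bars are medians; dotted line at -0.5). MXI1 runs from -0.23 in KMS-11 to -1.28 in KMS-12, while MNT stays between -0.47 and -0.61.

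Within single lines the order of MXI1 and MNT turned. In KMS-12 the MXI1 region was the lower of the pair by 0.81, with 11.1% of the list at or below its value in the authors' deposited table against 79.8% for MNT. In KMS-11 MNT was the lower, by 0.38, with 60.0% of the list at or below it and 93.7% at or below MXI1. In RPMI8226 the values of the authors' deposited table were only 0.04 apart, and 44.7% and 50.2% of the list were as low as MXI1 and MNT. No error is available for these differences. Their size can be set only beside the spread of the list.

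Each member can also be read against the regions that passed in the same pair of lines. MXI1 was 1 of 139 regions past -0.5 in KMS-12 and RPMI8226 alone. There its KMS-12 value was 8th lowest, and the median of these regions in the authors' deposited table was -0.72. Its RPMI8226 value was 98th lowest, so that the position of MXI1 came from KMS-12. MNT was 1 of 187 regions past -0.5 in KMS-11 and RPMI8226 alone. It was 134th and 148th lowest in those lines. In KMS-12, the line it missed, it was 18th lowest, where the median of these regions in the authors' deposited table was -0.28. MNT was close to the limit in that line. The values on either side of the limit in KMS-12 were -0.502 at FBXO5 and -0.498 at TMSB4X in the authors' deposited table.

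**Figure D3:**
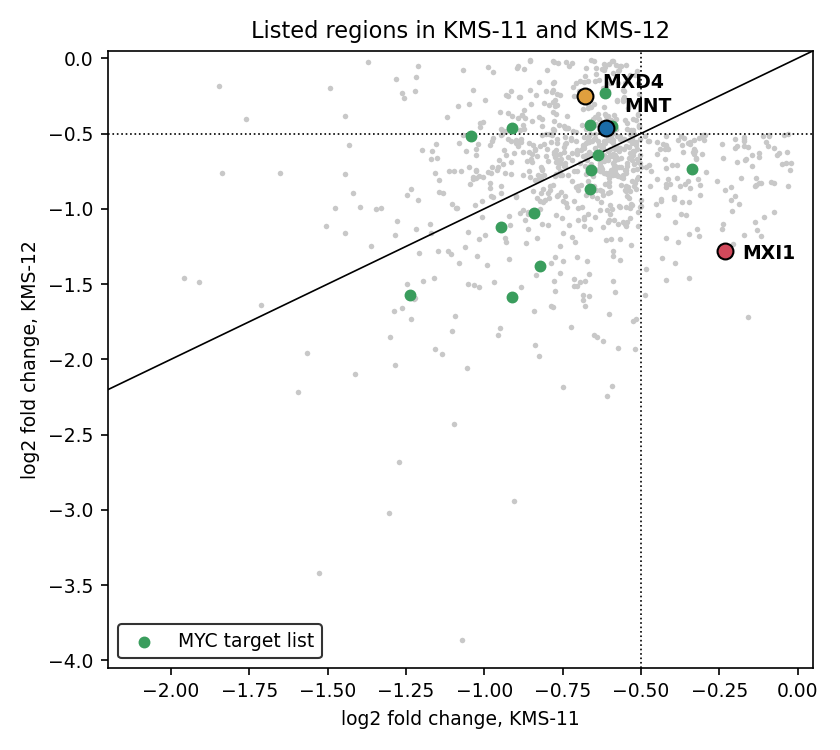
Log2 fold change in KMS-11 (x) against KMS-12 (y) for all 838 listed regions (grey) and for the regions of 14 MYC target genes (green), with MXI1, MNT and MXD4 marked; dotted lines are at -0.5, the solid line marks equal values, and the axes differ in scale. MXI1, at -0.23 and -1.28, is far below the line of equal values, and MNT, at -0.61 and -0.47, is close to it.

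The regions most like each member were found by Euclidean distance over the 3 fold changes. Fewer lay close to MXI1 than to MNT: 1 region was within a distance of 0.1 and 7 within 0.2, against 14 and 65 for MNT. The counts for a typical listed region were not computed. The 5 closest to MXI1 were at LOC105370032, an uncharacterised lncRNA gene, VHL, a tumour suppressor of the ubiquitin system, SEPHS2, an enzyme of selenium metabolism, CHCHD10, a mitochondrial protein gene whose region LOC107985577 shares, and PIM3, a kinase gene 6893 bp from its region. At VHL the authors' deposited table gave -0.17 (KMS-11), -1.17 (KMS-12) and -0.64 (RPMI8226). The 4 closest to MNT were at SNHG17 with LOC124904958, WDR74, HCFC1R1 with THOC6, and ARIH2 with ARIH2OS. WDR74, a ribosome production gene, had -0.59, -0.45 and -0.51 in the authors' deposited table. Distances in value ranged from 0.08 to 0.18 for MXI1 and from 0.05 to 0.07 for MNT, and describe a likeness of values over 3 lines only.

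The wider family was taken from a list of 13 genes of the MYC, MAX and MLX network. A listed region was assigned to 3 of the 13, namely MXI1, MNT and MXD4. MXI1 and MNT were chosen as antagonists with their regions known. Of the other 11 genes only MXD4 had a region (9.09%), against 4.11% of all protein coding genes, and this rests on 1 gene. All 3 encode MAX partners of the repressing arm, which the choice had set for MXI1 and MNT. MXD4 is an MXD protein that represses MYC target genes, and its region at chr4:2261066-2262099 lay within it, just after the start site. The authors' deposited table listed -0.68 (KMS-11), -0.25 (KMS-12) and -0.53 (RPMI8226) for MXD4. KMS-12 was thus the weakest line at MXD4, as at MNT, and the lowest line at MXI1. All 3 regions were past -0.5 in RPMI8226, as were 64.3% of all listed regions. None was past it in all 3 lines, where 25.4% of the list was. Nothing is read from these counts over 3 regions. The median of their means was -0.55, against -0.63 over all listed regions.

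No listed region was assigned to the activators MYC, MYCN and MYCL, to their partner MAX, to the repressors MXD1, MXD3 and MGA, or to MLX, MLXIP and MLXIPL. MLX is a relative of MAX, and MLXIP and MLXIPL are its nutrient-sensing partners. MLXIPL lay 14546 bp from a listed region, at TBL2, and 93.3% of protein coding genes lay as far from one or farther. The region nearest to MYC on chromosome 8 was at TMEM65, a mitochondrial membrane protein gene, 3.36 Mb away on the side of lower coordinates. The authors' deposited table gave that region -1.02 (KMS-11), -1.52 (KMS-12) and -0.89 (RPMI8226). On the other side the next was at SLURP1, 15.0 Mb away. It had -0.71, -1.51 and -0.62 in the authors' deposited table. No region lay within 1 Mb of MYC or of PVT1, the lncRNA gene beside it, and chromosome 8 held 16 regions in all. Such distances are common: 19.1% of 19974 protein coding genes lay as far from a listed region as MYC, and the median gene lay 0.80 Mb away. Whether a locus without a region failed the filter or never entered it cannot be read from the list. It therefore gives no value for H3K27ac at MYC.

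Each member had another listed region in its surroundings. Of all protein coding genes 54.9% lay within 1 Mb of a region, but that share counts a region at the gene itself. The share of genes with another region besides their own was not computed. Besides its own region MXI1 had 1 within 1 Mb, at the MAP kinase phosphatase gene DUSP5. It began 210016 bp from MXI1 and had -0.51 (KMS-11), -0.08 (KMS-12) and -0.69 (RPMI8226) in the authors' deposited table. At this neighbour the weakest line was KMS-12, the lowest at MXI1. On the other side the next region was 7.76 Mb away, at C10orf95. MNT also had 1 other region within 1 Mb, at the myosin gene MYO1C. It was 897606 bp from MNT and had -0.57, -0.78 and -0.55 in the authors' deposited table. MXD4 had 1 as well, 376448 bp away, whose nearest gene was the histone methyltransferase gene NSD2.

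**Figure D4:**
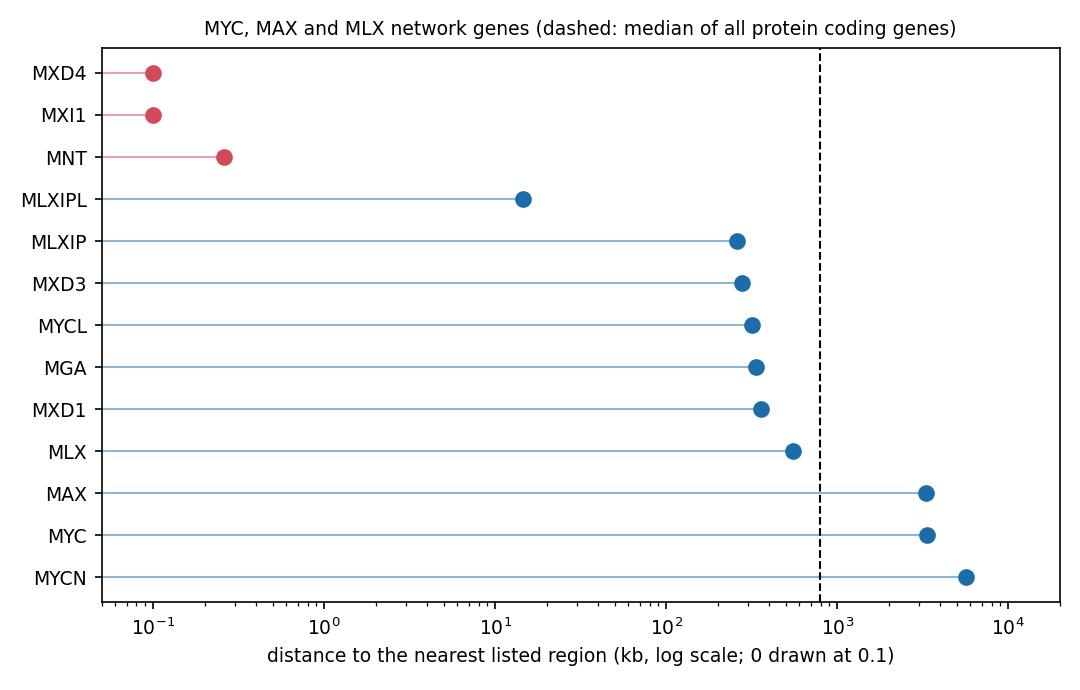
Distance in kb (log scale) from each of 13 network genes to the nearest listed region, with genes that have an assigned region in red and the median of all protein coding genes as a dashed line. MXI1, MXD4 and MNT are at 0 to 0.26 kb, and MXI1 and MNT were chosen with their regions known. Of the activators, MYC is 3.36 Mb, MYCN 5.64 Mb and MYCL 0.32 Mb away. The repressors MXD1, MXD3 and MGA are 0.36, 0.28 and 0.34 Mb away, and MLXIPL is 0.0145 Mb away.

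MXD proteins and MNT repress through the SIN3 complex. Of 18 corepressor genes, SIN3A, the scaffold of that complex, and ING2, a chromatin reader that joins it, had a listed region. That is 11.1%, against 4.11% of all protein coding genes, and rests on a pair of genes. SIN3A had a pair of regions inside the gene. The authors' deposited table gave the one at chr15:75454531-75456181 -0.56 (KMS-11), -0.80 (KMS-12) and -0.69 (RPMI8226), so all 3 lines were past -0.5. The other, at chr15:75453166-75453810, had -0.72, -0.55 and -0.43 in the authors' deposited table. ING2 resembled MXD4, with -0.72 (KMS-11), -0.19 (KMS-12) and -0.57 (RPMI8226) in the authors' deposited table. The histone deacetylase genes HDAC1, HDAC2 and HDAC3, SIN3B and NCOR1 had none. Of 24 MYC cofactor genes only MYCBP2, a large ubiquitin ligase, had a region, with -0.77, -0.61 and -0.74 in the authors' deposited table. This share, 4.17%, was close to the 4.11% of all protein coding genes.

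MYC target genes were taken from a list of 52 genes that MYC is known to regulate. Of these, 14 (26.9%) had a listed region, against 4.11% of all protein coding genes. The list was chosen with earlier results of these data known, so nothing particular to it is read from that. Of the 14, 3 were past -0.5 in all 3 lines and 11 in 2, where 25.4% of all listed regions were past it in 3. The median of the means of their regions was -0.74, against -0.63 over all regions. HSPD1, a mitochondrial chaperonin, was lowest with -1.24 (KMS-11), -1.58 (KMS-12) and -0.44 (RPMI8226) in the authors' deposited table. SLC7A5, a transporter of large neutral amino acids, had -0.82, -1.38 and -0.88 in the authors' deposited table, and SHMT2, an enzyme of serine and one-carbon metabolism, had -0.91, -1.59 and -0.41. KMS-12 was the lowest line at each of these, as it was at MXI1, but they were picked by their low means. KMS-11 was past -0.5 at each of them and not at MXI1. KMS-12 was not the lowest line at the targets NCL, LDHA, HK2, PKM, EIF4A1 and WDR74. The share of all listed regions with KMS-12 lowest was not computed.

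NOP56, part of the box C/D ribonucleoprotein that modifies ribosomal RNA, had -0.84 (KMS-11), -1.03 (KMS-12) and -0.55 (RPMI8226) in the authors' deposited table. NCL, which encodes nucleolin, had -1.04, -0.51 and -0.77 in the authors' deposited table. LDHA, the lactate dehydrogenase of glycolysis, was lowest in RPMI8226, with -0.66, -0.45 and -1.14 in the authors' deposited table. The other 8 targets with a region were WDR74, DKC1, UBTF, PKM, HK2, SLC3A2, EIF4A1 and RCC1, with means from -0.45 to -0.74. Several of these share their region with another gene, such as RCC1 with SNHG3 and EIF4A1 with SENP3-EIF4A1, and the signal cannot be divided between them. The same limit holds for NOP56, whose region also overlaps LOC105372505, and for MYCBP2, whose region also overlaps LOC127898562. The E-box CACGTG was in a promoter of 5 of 13 targets with a region that are present in the promoter table (38.5%). The same held for 13 of 34 targets without a region (38.2%) and for 10.9% of 15843 protein coding genes. Among protein coding genes with a promoter within 1 kb of a region the share was 15.1%. Of the targets counted as without a region, HSPE1 and E2F1 lay within 1 kb of one.

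**Figure D5:**
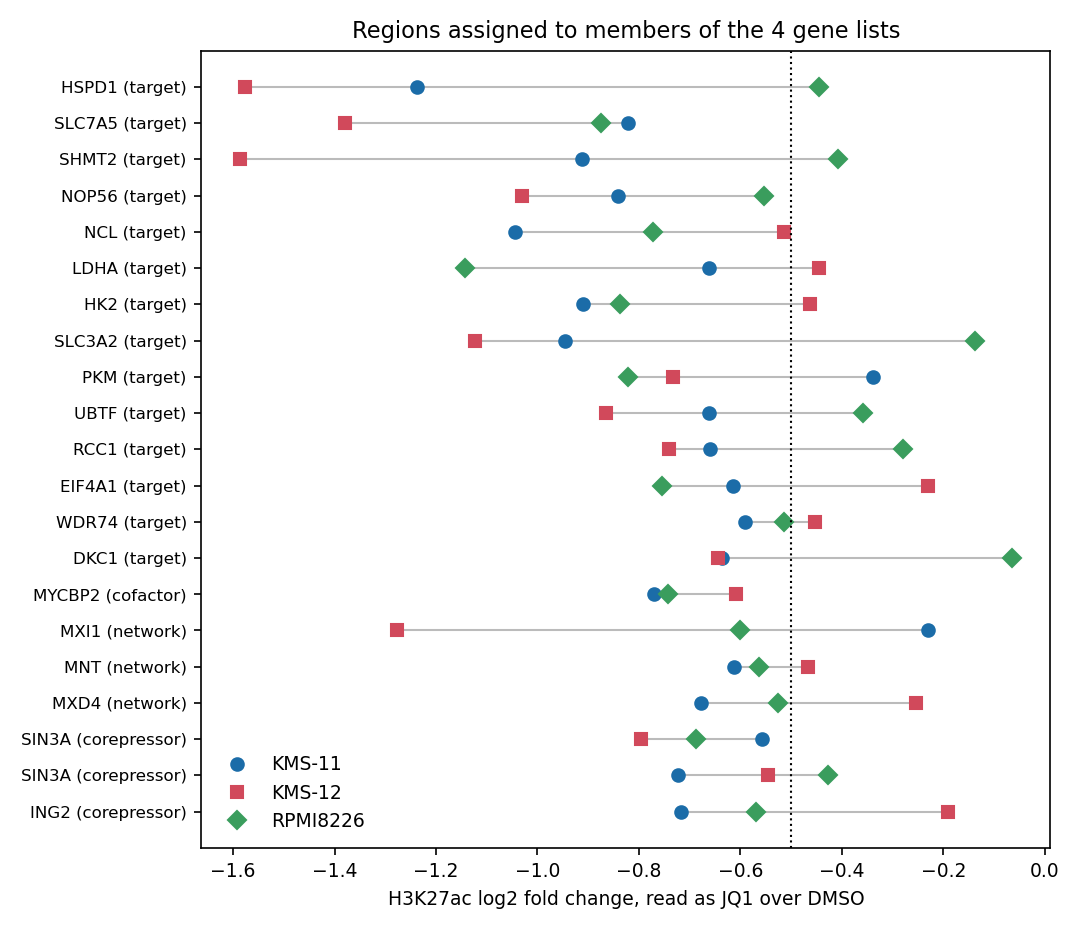
Log2 fold change in each line (symbols) for every region assigned to a member of the 4 gene lists, with the list in brackets, grey bars from the lowest to the highest line and a dotted line at -0.5. MXI1 spans -1.28 to -0.23, about as wide as HSPD1 and SHMT2, and MNT is among the narrowest bars.

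The list holds no transcript or protein value for MXI1 and MNT, and whether either gene was less expressed after JQ1 was not tested.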

How the data were processed

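H3K27ac ChIP-seq of 3 myeloma lines entered as 1 deposited table of 838 regions. It gives a log2 fold change per line, made by the authors. Their processing notes, as submitted, name DESeq2, MACS2, hg38 and GRCh38.p13 but not what each was for. The sources used here name no aligner, peak setting or threshold. Base and numerator are missing, per the file headers, and the authors' values were read as log2 of JQ1 over DMSO because DESeq2 reports log2, which does not settle the numerator. The deposited table holds no count, p-value or value of a single sample, so depth is unknown. No test was made, since each line has 1 sample per treatment and the list was filtered on these values.

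Gene positions came from RefSeq (GRCh38.p14, with chromosome coordinates equal to hg38) and were joined in Python 3.11.15 with pandas 2.3.3. Regions took each overlapping protein coding or lncRNA gene and, failing that, the gene with the nearest boundary. Start sites and promoters (250 bases before to 50 after a start) came from a RefSeq promoter table. It has start sites on the chromosomes of 822 of the 838 regions. Chromosome 8, which holds MYC, has no entry in it and is absent from every start-site, promoter and motif share. The assignment step was tested with regions planted inside genes, so the nearest-boundary rule, which gave MNT its region, was not tested. The motif step was tested with CACGTG planted in simulated sequences of A and T, which could give no false match. A planned comparison of protein sequences was not made. The members and the 4 gene lists were chosen with earlier results of these data known. Text names MXI1, MNT and MYC, network and corepressor genes with a region, the 6 targets or cofactors with the lowest mean, flanking regions, and the 5 most similar patterns for each member, of which the fifth for MNT is not reported here.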

Additional observations from a re-analysis of the deposited data

How the results depend on the processing

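No paired analysis was possible because the table holds no value of a single sample, and each fold change already sets JQ1 against DMSO within a line. Leaving out 1 line moved the mean log2 fold change of the MXI1 region between -0.94 (without KMS-11) and -0.42 (without KMS-12), and its rank between 99 and 726, so KMS-12 decides its place in the list; by the median of the lines the rank was 539. For MNT the mean ran from -0.59 to -0.51 and the rank from 460 (without KMS-12) to 636. After each line was centred on its own median over the list, the mean was -0.0644 at MXI1. At MNT it changed sign to 0.0917, which places MNT above a typical listed region. Centring subtracts 1 constant per line, so the ranks of the means and the 5 most similar regions could not change. With the limit at -0.75 or -1, 1 line remained past it at MXI1 and 0 at MNT, and at -0.6 1 remained at MNT. Of all listed regions, 64.3% had at least 2 lines past -0.6, 26.7% past -0.75 and 7.40% past -1. Nothing particular to the members is read from these counts. Restricting the list to regions shared by 3 lines left 0 regions at MXI1, 0 at MNT, 0 of the network, 1 corepressor gene and 3 MYC targets. Only 213 of the 838 regions (25.4%) were shared by 3 lines. Of the 824 protein coding genes with a region, 221 kept one, so these losses are not read as particular to the lists. Other assignment rules changed no list's count by over 1.5 times, and under the other region lists MYC stayed 3362785 bp from a region. By overlap of the gene body alone, MNT leaves the network count, which falls from 3 to 2. With the motif CANNTG 68.7% of promoters held a match, and 8.34% of those of protein coding genes held CACGTG. What depth limits is unknown, since the table gives no counts.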
